A study of Mus musculus with 6 samples.

Results

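The eosinophil-associated ribonuclease genes Ear1, Ear2, Ear3 and Ear12 were examined in alveolar macrophages from wildtype and Sdha-KO mice. The genes are 4 of the 23282 rows of the deposited count table. They were chosen by their Sdha-KO against wildtype count difference in these same libraries, so that difference is given below only as a description. Alveolar macrophages, the phagocytes that live in the airspace of the lung, were sorted by surface antigens (CD45+ CD11c+ F4/80+ SiglecF+ CD11b-). One group was wildtype. The other carried floxed Sdha and LysM-Cre, whose recombinase is made from the Lyz2 locus in myeloid cells, and lacks the flavoprotein subunit of succinate dehydrogenase where the deletion is complete. There were 3 libraries per genotype, and each replicate number is also a batch number that holds 1 library of each genotype. The labels used here give no age, do not say whether wildtype mice carried floxed alleles or Cre, and do not tell if each library is 1 mouse or several pooled. The p-values below therefore describe variation between these libraries, which may be technical.

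Eosinophil-associated ribonucleases are small secreted enzymes of the ribonuclease A superfamily. In the mouse they form a recently expanded cluster of near-identical genes and pseudogenes, related to human eosinophil-derived neurotoxin and eosinophil cationic protein. They are stored in eosinophil granules, and Ear1 and Ear2 are also abundant transcripts of alveolar macrophages, where they are used as markers of the mature cell. The secreted proteins degrade RNA, and members of the wider family act against viruses or bacteria and attract dendritic cells.

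The sequences show how alike the genes are, which bears on how their reads could be told apart. In the GENCODE M21 annotation of mm10, Ear1 lies on the minus strand of chromosome 14 (43818765 to 43875517) and Ear2 on the plus strand (44102654 to 44103534). Both are protein-coding genes, about 285 kb apart from end to end, and the span of Ear1 holds Ear pseudogenes, of which the annotation lists 10 in all beside 5 protein-coding Ear genes. Ear10 lies between them (43922720 to 43923559), and Ear6 lies 7.75 Mb further along the chromosome (51853699 to 51854643). The annotation used here holds 2 of the 4 rows by name, Ear1 and Ear2. Ear3 and Ear12 are named only. The first 90 bases of the coding sequences, from GENCODE M21, are shown with bases that differ from Ear1 in capitals.
Ear1: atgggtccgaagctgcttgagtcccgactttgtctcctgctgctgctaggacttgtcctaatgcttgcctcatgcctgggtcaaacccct
Ear2: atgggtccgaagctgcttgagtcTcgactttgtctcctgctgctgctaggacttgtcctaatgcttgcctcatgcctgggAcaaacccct
Ear10: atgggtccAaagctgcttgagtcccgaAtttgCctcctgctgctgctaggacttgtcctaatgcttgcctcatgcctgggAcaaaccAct
Ear6: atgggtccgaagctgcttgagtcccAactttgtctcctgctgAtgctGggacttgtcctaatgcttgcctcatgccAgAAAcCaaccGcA

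Ear1 and Ear2 had 95.1% identical positions over the whole coding sequence and 98.7% over the last 300 bases of the transcript, the region that a 3' library reads. Ear6 was further away, with 87.4% identity to Ear1 in the coding sequence and 89.4% in the last 300 bases. Of all runs of 50 bases in the last 300, 60.2% of those of Ear1 and 38.3% of those of Ear2 also occurred in a transcript of another annotated gene, among them each other, Ear10, Ear-ps2 and Ear-ps9. For runs of 75 bases the shares were 38.1% and 13.7%. For Ear6 they were 3.59% at 50 bases and 0 of 226 runs at 75 bases. For Ear10 they were 34.7% and 27.4%, with Ear1 and Ear2 among the genes that shared runs. Whether reads of those genes enter the low Ear10 counts was not tested. Exact runs are a description of the annotation: the read length, the mismatches allowed and the rule for reads with several matches are not stated in the labels.

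The upstream sequences of Ear1 and Ear2 are shown because the levels of both genes were lower in the same libraries. They are the 120 bases before the RefSeq start (GRCm38.p6, the build of mm10). For Ear1 these are chr14:43819640-43819759 on the minus strand and for Ear2 chr14:44102534-44102653 on the plus strand. The Ear1 window lies inside the GENCODE M21 span of the gene, which has 2 transcripts and reaches 43875517. Letters that match the C/EBP pattern TTNNGNAA, read on the opposite strand, are in capitals.
Ear1: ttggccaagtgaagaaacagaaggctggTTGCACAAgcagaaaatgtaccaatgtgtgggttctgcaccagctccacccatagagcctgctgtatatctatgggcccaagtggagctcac
Ear2: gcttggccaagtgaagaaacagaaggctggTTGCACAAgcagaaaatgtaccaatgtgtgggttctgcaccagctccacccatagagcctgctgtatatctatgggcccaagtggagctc

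Over the 250 bases before the start, Ear1 and Ear2 were 97.6% identical, against 91.7% for Ear1 and Ear10 and 78.2% for Ear1 and Ear6. On either strand, TTNNGNAA occurred once in this window in each of Ear1, Ear2, Ear6 and Ear10, and at least once in 36.8% of 32851 RefSeq promoter windows of this length. The PU.1 pattern GAGGAA (23.3% of windows) and the pattern GGAAA that can overlap it (55.6%) did not occur in these 4 windows. GGAAA is longer than the ETS core GGAA, which was not searched for. The hypoxia response core ACGTG (16.6%) and the TATA box TATAAA (12.4%) did not occur in these 4 windows either. The pattern AGGTCA (14.0%), a part of PPAR binding sites, occurred once, in Ear6. A match describes letters and is not a measured binding site.

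Total counts were 5400160 to 8472907 per library. Both replicate 1 libraries stood apart, with 7893 rows detected for wildtype and 5438 for Sdha-KO against 11383 to 13050 in the other libraries. Of rows with at least 50 counts in both other libraries of the same genotype, 11.8% were at 0 in the wildtype and 32.2% in the Sdha-KO library of replicate 1, against at most 1.19% in any other library. The ribosomal RNA row Rn45s took 20.9% to 57.6% of each library. Levels are given as CPM, counts scaled by library size and TMM factors. The limit set by a count of 0 is 3 counts, between 0.25 and 0.666 CPM. The targeted gene Sdha held 457, 295 and 567 counts in the wildtype libraries against 313, 113 and 153 in the Sdha-KO libraries, in order of replicate number, or 64.6 ± 8.13 against 23.3 ± 2.59 CPM (SD, n = 3). This is a limited check of the labels, since reads near a 3' end can lie outside the deleted part. In the same order, the X-linked transcript Xist gave 0, 4608 and 6055 wildtype and 2683, 498 and 822 Sdha-KO counts, and the Y-linked gene Ddx3y 222, 0 and 143 wildtype and 0, 354 and 432 Sdha-KO counts. The part of sex in the Ear values was not tested.

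Ear1 was abundant in wildtype macrophages and lower in every Sdha-KO library. In order of replicate number, as for all values by library below, its counts were 4777, 2591 and 5808 (wildtype) against 1742, 750 and 753 (Sdha-KO). Scaled to library size they were 585, 575 and 740 CPM against 145, 140 and 112 CPM. The genotypes did not overlap, and the lowest wildtype level was well above the highest Sdha-KO level. Mean levels were 633 ± 92.1 CPM (wildtype) and 132 ± 17.7 CPM (Sdha-KO; SD, n = 3), which is 4.78-fold lower (log2 fold change -2.26, SE 0.321). Whether fewer cells made Ear1 RNA or each cell held less of it cannot be told apart in bulk samples.

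Ear1 was lower within every replicate number. It was 4.03-fold lower in replicate 1 (95% exact interval 3.81 to 4.26), 4.12-fold in replicate 2 (3.80 to 4.48) and 6.59-fold in replicate 3 (6.11 to 7.12). These intervals cover counting error only and treat reads as independent, which reads without molecular identifiers are not. By CPM, Ear1 ranked 111, 92 and 68 among all rows of the wildtype libraries and 784, 727 and 910 among those of the Sdha-KO libraries.

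Ear2 was the most abundant gene of the family in every library. Its wildtype counts were 5171, 3743 and 6928 and its Sdha-KO counts 3671, 932 and 1128, or 634, 831 and 882 CPM against 306, 173 and 168 CPM. The groups did not overlap here either. Among Sdha-KO libraries, replicate 1 was the highest, and among wildtype libraries replicate 1 was the lowest. The means were 782 ± 131 and 216 ± 78.3 CPM (SD, n = 3), a 3.62-fold difference (log2 fold change -1.86, SE 0.345). Ear2 ranked 94, 49 and 52 by CPM in the wildtype and 286, 544 and 533 in the Sdha-KO libraries. Within replicate numbers Ear2 was 2.07-fold lower in replicate 1 (interval 1.98 to 2.16), 4.79-fold in replicate 2 (4.46 to 5.16) and 5.25-fold in replicate 3 (4.93 to 5.59), so the difference in replicate 1 was the smallest by more than counting error.

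Ear3 and Ear12 held the same count in all 6 libraries and are treated as 1 measurement. Among 9651 rows with at least 100 counts in all, 27 rows (0.28%) shared all 6 counts with another row, and no row shared those of Ear1 or Ear2. The common counts were 861, 1005 and 1284 (wildtype) against 1390, 120 and 405 (Sdha-KO). In CPM these were 106, 223 and 164 against 116, 22.3 and 60.4. The groups overlapped, because Sdha-KO replicate 1 lay above wildtype replicate 1. The means were 164 ± 58.8 and 66.2 ± 47.1 CPM (SD, n = 3). Within replicate numbers the level was 1.10-fold higher in Sdha-KO in replicate 1 (interval 1.01 to 1.20), 9.99-fold lower in replicate 2 (8.26 to 12.2) and 2.71-fold lower in replicate 3 (2.42 to 3.04). The overall log2 difference of -1.31 (SE 0.596) therefore stood for values that spread from a small excess to a large deficit. Without both replicate 1 libraries it was -2.21 (4.63-fold lower). By CPM the shared count ranked 1113, 362 and 584 in the wildtype and 1043, 4305 and 1836 in the Sdha-KO libraries.

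**Figure D1:**
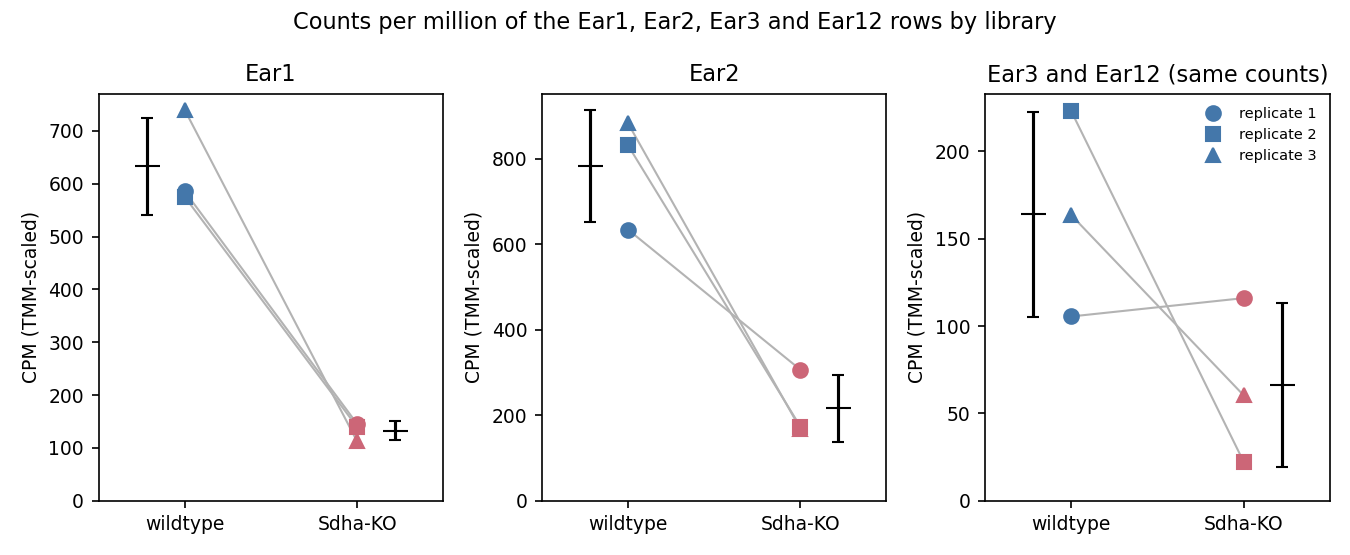
CPM of Ear1, Ear2 and the shared Ear3 and Ear12 count in each library (points, with lines joining libraries of the same replicate number), with the mean and SD of 3 libraries per genotype beside them. Ear1 and Ear2 lie lower in all 3 Sdha-KO libraries, and in the third panel the replicate 1 line runs slightly upward from 106 to 116 CPM.

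When genotypes were compared by edgeR's quasi-likelihood test (threshold of 0.05 on Benjamini-Hochberg adjusted p), 1 of the 4 rows passed, Ear1, as did 0.0502% of 9963 tested genes and, as lower in Sdha-KO, 0.01%. This call is among the values that chose the genes, and nothing is read from it. The edgeR adjusted p of Ear1 was 0.0261, or 0.374 when replicate numbers were entered as a block, and that of Ear2 was 0.122. A log2 fold change at or below that of Ear2 was seen for 9.11% of tested genes. Ear1 and Ear2 were also the 2 of 4 rows whose Sdha-KO libraries all lay below the wildtype libraries, which held for 9.27% of tested genes, and the 2 of 4 that were lower within all 3 replicate numbers, which held for 19.9%. Without both replicate 1 libraries Ear1 and Ear2 passed (edgeR adjusted p = 0.0207 and 0.0155), as did 0.251% of genes then tested (0.112% as lower), and in those libraries Xist was higher and Ddx3y lower in the wildtype libraries.

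**Figure D2:**
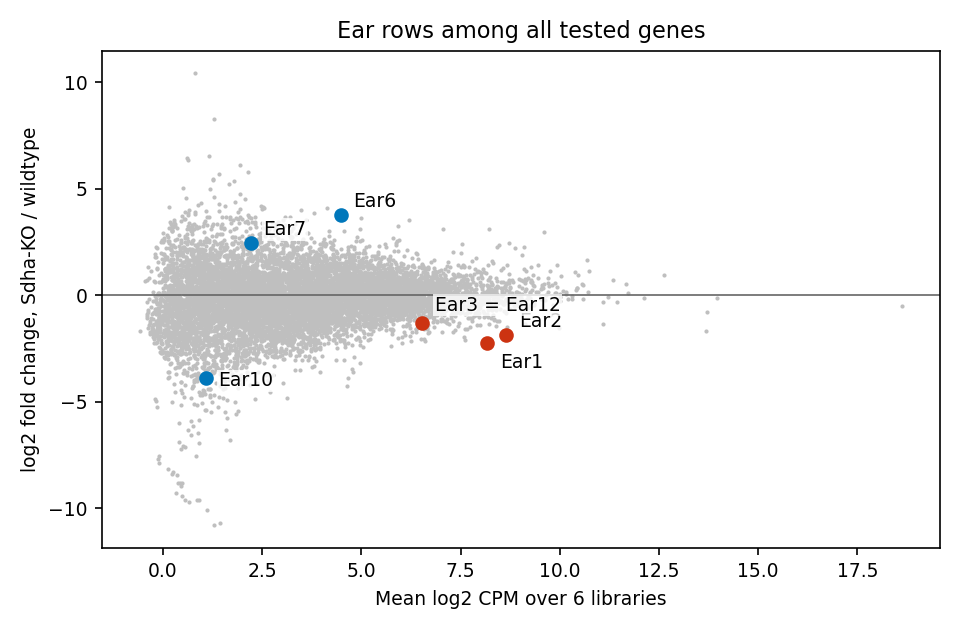
Fitted log2 fold change (Sdha-KO over wildtype) against mean log2 CPM for the 9963 tested genes (grey), with Ear1, Ear2 and Ear3 (equal to Ear12) in red and Ear6, Ear7 and Ear10 in blue. Ear1 (-2.26) and Ear2 (-1.86) lie below 0 at the abundant end, and Ear6 (3.75) lies above 0.

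The rows also differed in how steady they were inside a genotype. Pooled over both genotypes, the SD of log2 CPM within a genotype was 0.20 for Ear1, 0.39 for Ear2 and 0.93 for Ear3 and Ear12. The median was 0.53 over 1050 tested genes with a mean of at least 100 CPM. Of these genes, 94.2% had a larger SD than Ear1, 68.4% than Ear2 and 18.5% than Ear3. Among these 1050 genes Ear1 was thus among the steadiest, and Ear3 among the less steady. The genes were chosen by their genotype difference in these same libraries, a choice that can favour a small spread. The order is therefore a description only.

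Counts of the genes did not keep 1 ratio across libraries. For each Ear2 count the wildtype libraries held 0.924, 0.692 and 0.838 Ear1 counts, and the Sdha-KO libraries 0.475, 0.805 and 0.668. For Ear3 the ratios to Ear2 were 0.167, 0.269 and 0.185 (wildtype) against 0.379, 0.129 and 0.359 (Sdha-KO). The Sdha-KO replicate 1 library had the lowest Ear1 and the highest Ear3 count per Ear2 count. The shared count of Ear3 and Ear12 was therefore not a fixed fraction of Ear2. Ear6 differed most, with 0, 0.016 and 0.0209 counts per Ear2 count in the wildtype and 0.851, 0.525 and 0.454 in the Sdha-KO libraries, and the genotypes did not overlap.

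Counted once for Ear3 and Ear12, the summed level of the 4 rows was 1325, 1629 and 1785 CPM in the wildtype and 568, 335 and 341 CPM in the Sdha-KO libraries. The genotype means were 1579 ± 234 and 415 ± 133 CPM (SD, n = 3), 3.81-fold apart. Wildtype libraries lay above all Sdha-KO libraries, and within replicate numbers the sum was 2.33-fold, 4.86-fold and 5.24-fold lower. With the Rn45s row left out of the total, the summed counts made up 0.206%, 0.298% and 0.316% of the wildtype libraries against 0.102%, 0.0589% and 0.0608% of the Sdha-KO libraries.

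The rest of the ribonuclease A family was examined from a list of 28 genes, of which 25 had a row. There were 13 rows at 0 in all libraries, among them Ear4, Ear14, Rnase1 and the angiogenin paralogs Ang2, Ang3, Ang4, Ang5 and Ang6. Rnase2a and Rnase2b had at most 5 counts in any library. Beside the 4 rows above, 6 rows were tested and 0 passed in edgeR, DESeq2 or limma-voom. In edgeR 0 of the 6 had an unadjusted p under 0.05, as 2.64% of all tested genes did. Ear6 and Ear7 were positive and Ear10, Rnase4, Rnase6 and Ang negative. The median log2 fold change of the 6 was -1.003, beside -0.13 over all tested genes.

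Ear6, a further eosinophil-associated ribonuclease gene, ran opposite to Ear1 and Ear2 in these libraries. The wildtype libraries gave 0, 60 and 145 counts and the Sdha-KO libraries 3125, 489 and 512, or 0, 13.3 and 18.5 CPM against 261, 90.9 and 76.3 CPM. All Sdha-KO libraries lay above all wildtype libraries, which held for 5.04% of tested genes, and higher within all 3 replicate numbers held for 11.4%. Ear6 was 6.83-fold higher in Sdha-KO within replicate 2 (interval 5.22 to 9.09) and 4.13-fold within replicate 3 (3.43 to 5.01). In replicate 1, where the wildtype count was 0, it was at least 576.5-fold higher by the same exact interval and 709-fold higher with 3 counts set in place of the 0. That wildtype library is one in which 11.8% of rows with at least 50 counts in both other wildtype libraries were at 0.

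The Ear6 difference did not pass the test over all genes. Its log2 fold change was 3.75 (SE 1.60, edgeR adjusted p = 0.9998). Without both replicate 1 libraries it was 5.28-fold higher (SE 0.388 on the log2 scale, edgeR adjusted p = 0.0697). With no filter on low counts edgeR called it (adjusted p = 0.0116).

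Ear7, another row of the family, showed the same direction at lower levels. Its levels were 0, 4.66 and 3.06 CPM in the wildtype and 14.2, 20.5 and 7.45 CPM in the Sdha-KO libraries (edgeR adjusted p = 0.9998). The lowest Sdha-KO level of Ear7 lay above the highest wildtype level. Within replicate numbers 2 and 3 it was 4.39-fold and 2.44-fold higher. Ear10, the neighbour of Ear1, gave 10, 79 and 80 counts (wildtype) against 5, 0 and 10 counts (Sdha-KO). That is 1.23, 17.5 and 10.2 CPM against 0.417, 0 and 1.49 CPM, lower within each replicate number but overlapping between groups, and it did not pass (log2 fold change -3.88, SE 2.56, edgeR adjusted p = 0.9998).

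**Figure D3:**
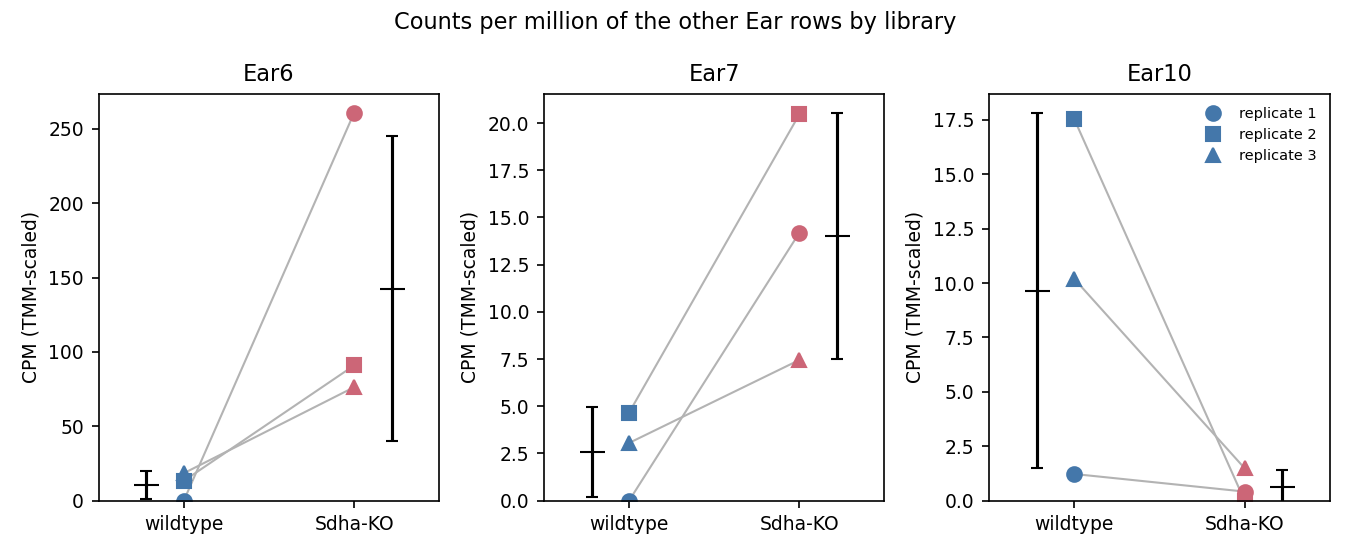
CPM of Ear6, Ear7 and Ear10 in each library, drawn as for the 4 rows above with the mean and SD of 3 libraries per genotype. Ear6 and Ear7 lie higher in all Sdha-KO libraries, led by replicate 1 (261 CPM) for Ear6 and replicate 2 (20.5 CPM) for Ear7, and Ear10 runs downward in each replicate number.

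**Figure D4:**
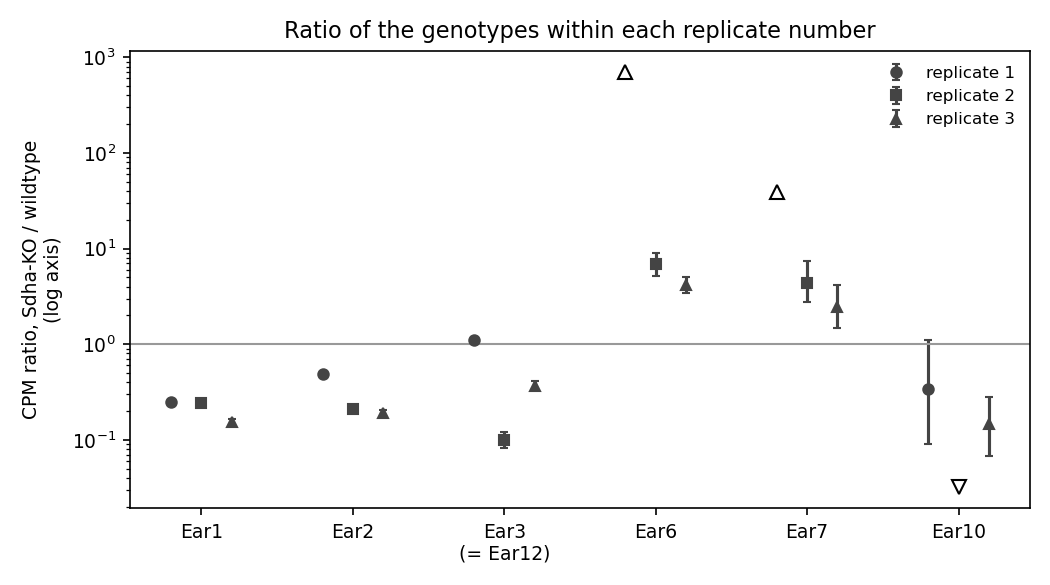
Ratio of Sdha-KO to wildtype CPM within each replicate number on a log axis, with exact 95% intervals for counting error. Open triangles are ratios with 3 counts set in place of a count of 0, and are not limits of the exact intervals. They point up where the wildtype count was 0 and down where the Sdha-KO count was 0. Ear1 and Ear2 lie below 1 in all replicate numbers, Ear3 (equal to Ear12) lies at 1.10 in replicate 1, and Ear6 and Ear7 lie above 1 throughout.

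The shares of the family's counts, a description with no test of the genotypes, partly follow from the lower Ear1 and Ear2 counts by which the genes were chosen. Ear6 made up 0%, 0.764% and 0.974% of the family's counts in the wildtype libraries. In the Sdha-KO libraries it made up 29.9% (95% Clopper-Pearson interval 29.1 to 30.8), 18.1% (16.7 to 19.7) and 16.3% (15.0 to 17.6). For the count of 0 in wildtype replicate 1 the same interval reached up to 0.0312%, and 3 counts would be a share of 0.0254%. The Ear1 share was 40.5%, 33.0% and 39.0% in wildtype and 16.7%, 27.8% and 23.9% in Sdha-KO libraries. The Ear2 share was 43.8% to 47.7% in wildtype and 34.6% to 35.9% in Sdha-KO libraries. The shared count of Ear3 and Ear12 made up 7.29%, 12.8% and 8.62% of the family in wildtype against 13.3%, 4.45% and 12.9% in Sdha-KO libraries, and here the genotypes overlapped.

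**Figure D5:**
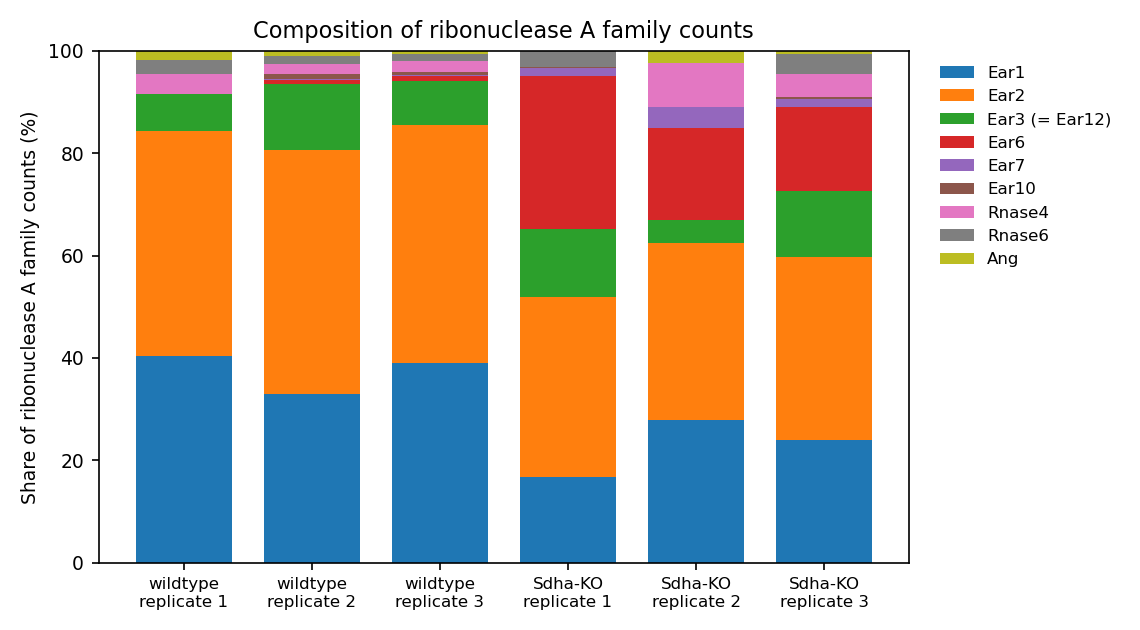
Share of ribonuclease A family counts in each library (stacked bars to 100%), with Ear3 and Ear12 counted once. Ear1 and Ear2 together fill most of each wildtype bar, and Ear6 (red) takes 16.3% to 29.9% of the Sdha-KO bars against at most 0.974% of the wildtype bars.

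The ribonucleases outside the Ear cluster gave no call. Rnase4, which shares its locus with the angiogenin gene Ang so that their counts are uncertain, averaged 44.0 ± 11.0 CPM for wildtype and 21.5 ± 21.5 CPM for Sdha-KO. Ang had 18.4 ± 6.90 and 4.79 ± 6.01 CPM, and both genes were at 0 in Sdha-KO replicate 1. Rnase6, an antimicrobial ribonuclease of phagocytes, had 30.1 ± 9.14 and 15.4 ± 14.2 CPM, with 0 counts in Sdha-KO replicate 2 (SD, n = 3; edgeR adjusted p = 0.9998 for each). Of 17 other ribonuclease and nuclease genes with the inhibitor Rnh1, all were tested and 0 passed (0 at an unadjusted p under 0.05 in edgeR). Of the 17, 13 were negative, as were 5480 of all 9963 tested genes. Lower in Sdha-KO without overlap were 4 of the 17, as were 9.27% of tested genes. Higher without overlap were 0, against 5.04% of tested genes. Rnh1, the cytosolic inhibitor that binds ribonuclease A enzymes, had 280 ± 178 and 215 ± 38.3 CPM, and the lysosomal exonuclease gene Pld3 had 446 ± 252 and 347 ± 234 CPM (SD, n = 3).

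Eosinophils also express Ear genes, so their markers were examined. The granule protein genes Prg2, Epx and Prg3 and the granulocyte factor gene Cebpe were at 0 in all 6 libraries. The eotaxin receptor gene Ccr3 had 1 count in 1 library, and the interleukin-5 receptor gene Il5ra had 1 count in 2 libraries. Alox15 had 13 counts and Adgre4 had 7, all in wildtype replicate 3. Of the 9 eosinophil list genes only Ltc4s was tested, a leukotriene synthase gene that macrophages also express, with 228 ± 34.6 CPM (wildtype) against 83.4 ± 68.5 CPM (Sdha-KO; SD, n = 3; edgeR adjusted p = 0.9998). The summed level of the list was 200 to 269 CPM (wildtype) and 4.42 to 127 CPM (Sdha-KO), nearly all of it Ltc4s.

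Markers of the sorted cell were present. The 14 alveolar macrophage genes summed to 8059 to 9536 CPM (wildtype) and 7741 to 10260 CPM (Sdha-KO), with Chil3 and Lpl the most abundant. In edgeR 0 of 14 passed, and 9 were negative and 5 positive, beside 5480 negative and 4483 positive of 9963 tested genes. Of the 14, 4 had an unadjusted p under 0.05 in edgeR, as 2.64% of tested genes did. Of these, 3 were lower, and the higher one was Car4 (389 ± 105 and 860 ± 92.0 CPM). Its libraries were higher in Sdha-KO without overlap, as were those of 5.04% of tested genes. Chil3, a secreted chitinase-like protein gene, had 4728 ± 616 and 4311 ± 968 CPM, and the lipoprotein lipase gene Lpl had 1016 ± 105 and 1178 ± 265 CPM. Siglecf, the sorting antigen gene, had 124 ± 18.6 and 28.3 ± 24.7 CPM and was at 0 in Sdha-KO replicate 1. Named after their values were seen, the keratin gene Krt79 had 135.5 ± 73.3 and 34.7 ± 9.55 CPM and the lipid droplet gene Cidec 124 ± 22.1 and 47.4 ± 22.8 CPM. Siglecf, Krt79 and Cidec, 3 of the 14, were lower in Sdha-KO without overlap, as were 9.27% of tested genes. Itgax, which encodes the sorting antigen CD11c, had 375 ± 107 and 209 ± 66.2 CPM and the mannose receptor gene Mrc1 663 ± 281 and 288 ± 234 CPM, both overlapping (SD, n = 3). The edgeR adjusted p was 0.9998 for each of Siglecf, Krt79, Cidec, Itgax and Mrc1. The part of these differences in the Ear values was not tested.

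Of other cell types, the monocyte and interstitial macrophage list summed to 20.6 to 52.7 CPM (wildtype) and 79.5 to 205 CPM (Sdha-KO). All 6 of its tested genes were positive, as were 4483 of all 9963 tested genes, and 0 passed. Its leading genes were the chemokine receptor genes Ccr2 (13.3 ± 8.07 and 58.3 ± 27.0 CPM) and Cx3cr1 (12.3 ± 2.64 and 14.4 ± 14.4 CPM), and its Folr2 was at 0 throughout. The dendritic cell list summed to 5.99 to 26.4 and 5.17 to 156 CPM, with Ccr7 (3.92 ± 5.0 and 43.1 ± 47.8 CPM) and Cd209a (1.76 ± 2.67 and 18.4 ± 18.7 CPM) leading its 4 tested genes, 3 of them positive. The neutrophil list summed to 55.4 to 92.3 and 79.9 to 169 CPM, with S100a8 (54.1 ± 32.8 and 67.1 ± 9.14 CPM) and Cxcr2 (4.31 ± 6.27 and 38.0 ± 39.0 CPM) leading (SD, n = 3). No gene of these lists passed, and the part of such cells in the Ear values was not tested.

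The epithelial list summed to 208 to 360 CPM (wildtype) and 71.4 to 625 CPM (Sdha-KO), led by Scgb1a1 (168 ± 52.0 and 163 ± 229 CPM) and the surfactant gene Sftpc (59.8 ± 22.2 and 84.1 ± 78.8 CPM). The haemoglobin genes Hba-a1 (146 ± 14.5 and 158 ± 115 CPM) and Hbb-bs (55.1 ± 22.2 and 80.3 ± 30.7 CPM) and the B cell genes Ms4a1 (3.68 ± 4.03 and 2.53 ± 4.39 CPM) and Cd79a (3.32 ± 3.83 and 1.69 ± 2.93 CPM) overlapped between genotypes. The mast cell and basophil list had at most 4.84 CPM in any library and no tested gene (SD, n = 3).

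Transcription factor and receptor genes that act in alveolar macrophages or granulocytes were taken as a list of 22, of which 20 were tested and 0 passed. Their median log2 fold change was -0.14, beside -0.13 over all tested genes. In edgeR 2 of the 20 had an unadjusted p under 0.05, as 2.64% of tested genes did, 1 lower and 1 higher. The lower one was the TGF-beta receptor gene Tgfbr1, named after its values were seen. It had 140 ± 45.5 CPM (wildtype) against 26.9 ± 19.5 CPM (Sdha-KO, SD, n = 3, edgeR adjusted p = 0.9998). It was lower in Sdha-KO without overlap, as were 9.27% of tested genes. Spi1, which encodes PU.1, had 627 ± 388 and 479 ± 241 CPM. Car4, the higher one and a membrane carbonic anhydrase gene also placed in this list, had 389 ± 105 and 860 ± 92.0 CPM (edgeR adjusted p = 0.851). Of 10 genes for secreted proteins linked to type 2 responses, 4 were tested and 0 passed. After Chil3 the most abundant was the chemokine gene Ccl17, with 17.4 ± 17.3 CPM (wildtype) against 212 ± 139 CPM (Sdha-KO; SD, n = 3; edgeR adjusted p = 0.9998).

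The genes most like Ear1 across the 6 libraries were sought among 3542 tested genes with at least 10 counts in every library. Sdha itself came first (Pearson r of log2 CPM 0.987), followed by Zfp608 (0.979), the formyl peptide receptor gene Fpr2 (0.970), Ptms (0.967) and Ms4a8a (0.967). For Ear2 the order was Sdha (0.983), Ccdc80 (0.964), Clmp (0.949), Plekhh2 (0.944) and Zcchc6 (0.942). All of them were lower in Sdha-KO libraries without overlap. Fpr2 averaged 381 ± 43.0 CPM (wildtype) against 97.5 ± 18.0 CPM (Sdha-KO; SD, n = 3; edgeR adjusted p = 0.109). The 6 points fall into 2 genotypes and share their libraries, so the coefficients mostly describe a difference between genotypes.

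With each genotype's mean subtracted, the genes most like Ear1 were others, namely Stip1 (r = 0.990), 4933400F21Rik (0.972), Rps6ka2 (0.955), Ccdc84 (0.941) and 2810403A07Rik (0.933). Unlike Ear1, all of them were positive between genotypes (log2 fold change 0.351 to 1.527, edgeR adjusted p = 0.9998 for each). With the means subtracted, Ear1 and Ear2 correlated at 0.604, Ear2 and Ear3 at 0.783 and Ear1 and Ear3 at 0.03. Without that step the values were 0.966, 0.850 and 0.708. Ear6 correlated with Ear1 at -0.715 over all libraries and at 0.482 within genotypes. These are descriptions over 6 libraries, and the genes named as most like Ear1 are the highest of 3542 searched, so high coefficients can arise by chance.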

How the data were processed

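RNA of sorted cells was sequenced with a QuantSeq 3' mRNA kit, per the labels' protocols, which primes on poly(A) tails, so a count does not scale with transcript length. The authors deposited raw counts per gene symbol, 1 column per library. Per the submitters' processing notes, Bowtie2 and bedtools were used on mm10. Versions, annotation, strand and the rule for multiple matches are not stated there.

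The deposited counts were fitted over all 23282 rows with edgeR 4.0.16 in R 4.3.3 (filterByExpr, minimum count 10, TMM, robust quasi-likelihood, genotype only, Benjamini-Hochberg threshold 0.05). A check on simulated data set 200 genes to change by 1 on the log2 scale. The share recovered, over a number of genes not given here, was 3.09%, with 2 false calls. With 200 genes changed by 2.25 the share, again over a number not given, was 50%, with 2 false calls. A gene that did not pass is therefore not shown to be unchanged. Log2 CPM used a prior count of 2. Each SE was derived from the F statistic, as the log2 fold change over its square root. Pairwise identities are from global alignment.

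Replicate numbers pair the samples because the labels repeat them as batches. Deviations from genotype means correlated at 0.155, 0.117 and 0.126 for the same number and at -0.152 to 0.111 otherwise. Libraries of a genotype differed by more than counting noise (chi-square over its degrees of freedom, 36.5 or more).

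The genes and lists were chosen with earlier results of these data known. Other genes named were the tested family genes, the 2 most abundant tested genes per list, and the 5 most correlated genes. Sdha, Xist, Ddx3y and eosinophil markers near 0 were added, and Siglecf, Itgax, Mrc1, Krt79, Cidec and Tgfbr1 after their values were seen. Alternatives were RLE factors, library totals, 2 other filters, DESeq2 1.42.0, limma-voom (limma 3.58.1), the replicate block and left-out libraries or rows.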

Additional observations from a re-analysis of the deposited data

How the results depend on the processing

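Ear1, Ear2, Ear3, Ear12 and Ear10, and the other way Ear6 and Ear7, kept their direction in the main comparison and all 15 alternatives. Log2 fold changes ranged from -2.37 to -1.96 for Ear1, -2.32 to -1.49 for Ear2, -2.21 to -0.85 for Ear3 and Ear12, and 2.40 to 5.86 for Ear6. Ear1 passed in 10 of 16 settings and Ear2 in 4. Ear1 did not pass with library totals, the stricter filter, the replicate block, or when wildtype replicate 1 or either of Sdha-KO replicates 1 and 3 was left out. Ear2 passed with no filter, limma-voom, and without wildtype replicate 2 or both batch 1 libraries.

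The count of genes changed was 5. It was 9 with library totals alone, 48 with no filter, 0 with at least 10 counts in all 3 libraries of a genotype (255 at an unadjusted p under 0.05), 21 with DESeq2, 79 with limma-voom, 0 with the replicate block (296 at an unadjusted p under 0.05) and 27 without both libraries of batch 1. Leaving out 1 library gave 0 (wildtype replicate 1 left out; 340 had an unadjusted p under 0.05) to 13 (without wildtype replicate 3). With library totals the median log2 fold change of all genes was 0.05, against -0.13.

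Uncalled genes changed sign as follows, and the cause was not tested. With library totals, Pld3 was 0.021, Chil3 0.11 and Scgb1a1 0.011. With the stricter filter, Scgb1a1 was 0.011. With limma-voom, Cx3cr1 was -2.47, Sftpc -0.12 and Hba-a1 -0.77. With the replicate block, Cx3cr1 was -0.68 and Hba-a1 -0.33. Without both batch 1 libraries, Rnh1 was 0.12 and Scgb1a1 0.42. Leaving out 1 library in turn gave ranges of -1.08 to 0.20 for Pld3, -0.71 to 0.25 for Rnh1, -0.88 to 0.24 for Spi1, -0.77 to 0.81 for Cx3cr1, -2.42 to 0.49 for Scgb1a1, -0.62 to 0.92 for Sftpc, -7.81 to 0.71 for Ms4a1, -7.67 to 0.47 for Cd79a and -0.34 to 0.62 for Hba-a1.

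The summed level of the 4 rows had a log2 ratio of -1.93, or -1.86 with Ear3 and Ear12 both counted. Settings chosen after seeing the data gave -1.57 with library totals and -2.22 to -1.79 with each library left out.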
